A study of Mus musculus with 35 samples.

Results

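The 7 genes described here encode chains of the fibrillar collagens: Col1a1 and Col1a2 of type I, Col3a1 of type III, Col5a1, Col5a2 and Col5a3 of type V, and Col11a1 of type XI. They were found by name in the scanner files and are 7 of 18671 genes tested, measured by 16 of 41174 probes and 25 of 43379 gene spots. Each value is a log2 ratio, the log2 of the aorta's signal over that of a universal mouse reference RNA hybridised to the same spot. An array carried 1 entire suprarenal aorta of a male ApoE-/- mouse, which lacks apolipoprotein E, and all 35 mice carried the deletion. Osmotic minipumps were placed at 12 to 14 weeks of age and delivered angiotensin II (Ang II) at 1000 ng/kg/min, or saline. The groups were 3 dissected aneurysms after 7 days of Ang II, 4 non-dissected aneurysms after 7 days of Ang II and 6 saline aortas of 7 days, 5 aneurysms after 14 days of Ang II and 6 saline aortas of 14 days, and 6 aneurysms after 28 days of Ang II and 5 saline aortas of 28 days. The labels name an aneurysm in every Ang II group, so that no Ang II aorta without one was measured.

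Fibrillar collagens are secreted as procollagen, trimmed of their end domains outside the cell and packed into crosslinked fibrils that bear the tension of a vessel wall. Type I and type III collagen make up most of the fibrils of the media and adventitia. Types V and XI are minor collagens that start fibrils and limit their width. In humans, variants of COL3A1 and COL5A1 underlie forms of Ehlers-Danlos syndrome, which affect vessels and skin.

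In the aorta channel 45.0% to 84.8% of an array's gene spots stood well above background (median 57.1%). All arrays were scanned on 2 days. The 3 dissected aortas were all scanned on day 2, the non-dissected Ang II aortas of 7 days lay 3 on day 1 and 1 on day 2, and the other groups were spread over both days. Nothing says that replicates were processed apart, so that the p-values cover only the spread among the aortas measured, which may be technical. In whole tissue a lower signal from fewer cells of a type and from less RNA per cell cannot be told apart.

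Only 6 chosen probes were examined for reading frames, and each had a frame without a stop codon. In A_51_P377094 and A_52_P503796 all 3 frames lacked one. Those below are shown because their results are set against the brightest probes further on, and each is written 5′ to 3′ as the scanner files give it, with coordinates of build mm8. In the first group capitals mark the cysteine codons TGC and TGT in the frame without a stop that holds most of them. Of these probes, A_51_P377094 of Col1a1 lies at chr11:94766828-94766887 (plus strand), A_52_P658611 of Col1a1 at chr11:94754053-94754112 (plus strand), A_52_P684242 of Col3a1 at chr1:45266098-45266157 (plus strand) and A_52_P507877 of Col11a1 at chr3:114082172-114082231 (plus strand).
A_51_P377094: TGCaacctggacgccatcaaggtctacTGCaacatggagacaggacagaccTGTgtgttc
A_52_P658611: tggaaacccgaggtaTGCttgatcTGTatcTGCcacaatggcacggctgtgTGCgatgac
A_52_P684242: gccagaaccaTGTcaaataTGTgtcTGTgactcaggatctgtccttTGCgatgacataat
A_52_P507877: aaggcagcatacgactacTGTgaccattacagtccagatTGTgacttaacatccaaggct

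In the second group capitals mark glycine codons (GGN) that follow each other 3 codons apart, the spacing of the collagen helix. A_52_P237371 of Col5a1 holds 6 of them among 19 codons read and its 60 bases span chr2:27808732-27811155 (plus strand), 2424 bases of the genome. A_52_P503796 of Col5a3 holds 7 among 19 codons and spans chr9:20536024-20536753 (minus strand), 730 bases.
A_52_P237371: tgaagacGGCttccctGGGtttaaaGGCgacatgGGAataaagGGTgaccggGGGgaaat
A_52_P503796: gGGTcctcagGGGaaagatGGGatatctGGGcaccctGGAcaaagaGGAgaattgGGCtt

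All 7 chains were higher in non-dissected Ang II aortas than in saline aortas at 7 days, and for each of them the groups did not overlap. The count of 7 of 7 higher stood against 14.5% of all genes tested that were called higher by limma at an adjusted p (Benjamini-Hochberg over all genes) under 0.05, and against 12.3% whose groups did not overlap in that direction. Their median change was 3.61 on the log2 scale, while the median over all genes was -0.00347.

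Col1a1, the more abundant chain of type I collagen, had log2 ratios of 4.68, 4.96, 3.96 and 4.09 in the Ang II aortas of 7 days, against a lowest of -1.64, a median of -0.27 and a highest of 1.39 in the 6 saline aortas. Every Ang II aorta stood above the highest saline aorta. The change was 4.59 (SE 0.65, adjusted p = 8e-06), or 24.2-fold, the rank 4 of all genes tested. In the aorta channel itself its spots averaged intensities of 117932 to 219312 in Ang II aortas and 12922 to 36943 in saline aortas.

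Col1a2, the partner chain of type I collagen, had ratios of 3.19, 3.74, 2.12 and 3.23 in Ang II aortas, against -1.92, -0.77 and 0.59 (lowest, median, highest) in saline aortas. Its change of 3.80 (SE 0.66) was 13.9-fold. Col3a1, the only chain of type III collagen, which is abundant in distensible tissues such as arteries, had 4.22, 4.50, 3.77 and 3.97 in Ang II aortas, against -1.07, 0.38 and 1.43 in saline aortas. It changed by 3.81 (SE 0.56), or 14.0-fold. Both ranked among the first 10 of all genes by the size of their rise, Col3a1 at rank 9 and Col1a2 at rank 10.

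Of the type V chains, Col5a1 and Col5a2 moved by amounts close to those of Col1a2. Col5a1, which occurs in nearly all type V molecules, had 2.46, 2.99, 2.09 and 2.36 in Ang II aortas, against -2.12, -1.14 and 0.01 in saline aortas, a change of 3.61 (SE 0.48). Col5a2, its usual partner, had 2.19, 3.00, 2.16 and 2.23 in Ang II aortas, against -1.79, -0.99 and 0.16 in saline aortas, a change of 3.23 (SE 0.46). Col5a3, a type V chain of more limited distribution, had 1.70, 2.35, 2.03 and 2.49 in Ang II aortas, against 0.39, 1.55 and 1.69 in saline aortas, so that the lowest Ang II value lay just above the highest saline value. Its change was 0.93 (SE 0.32, adjusted p = 0.0287), or 1.91-fold. Without saline replicate 1 or 3, or Ang II replicate 2 or 4, its adjusted p was 0.0645, 0.0652, 0.0858 and 0.0876, at changes of 0.79, 0.77, 0.86 and 0.82. Its call was also lost with median centring in place of loess, at 0.76 (adjusted p = 0.333), and without background subtraction, at 0.87 (adjusted p = 0.0546).

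Col11a1, a chain best known from cartilage fibrils, had 3.35, 4.28, 3.07 and 2.49 in Ang II aortas, against -0.19, 0.62 and 1.28 in saline aortas. Its change was 2.73 (SE 0.58, adjusted p = 0.000959), or 6.65-fold. Its probe was dim: aorta-channel intensities ran from 439 to 1408 in Ang II aortas and from 97.7 to 276 in saline aortas, where 5 of 6 arrays were well above background.

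**Figure D1:**
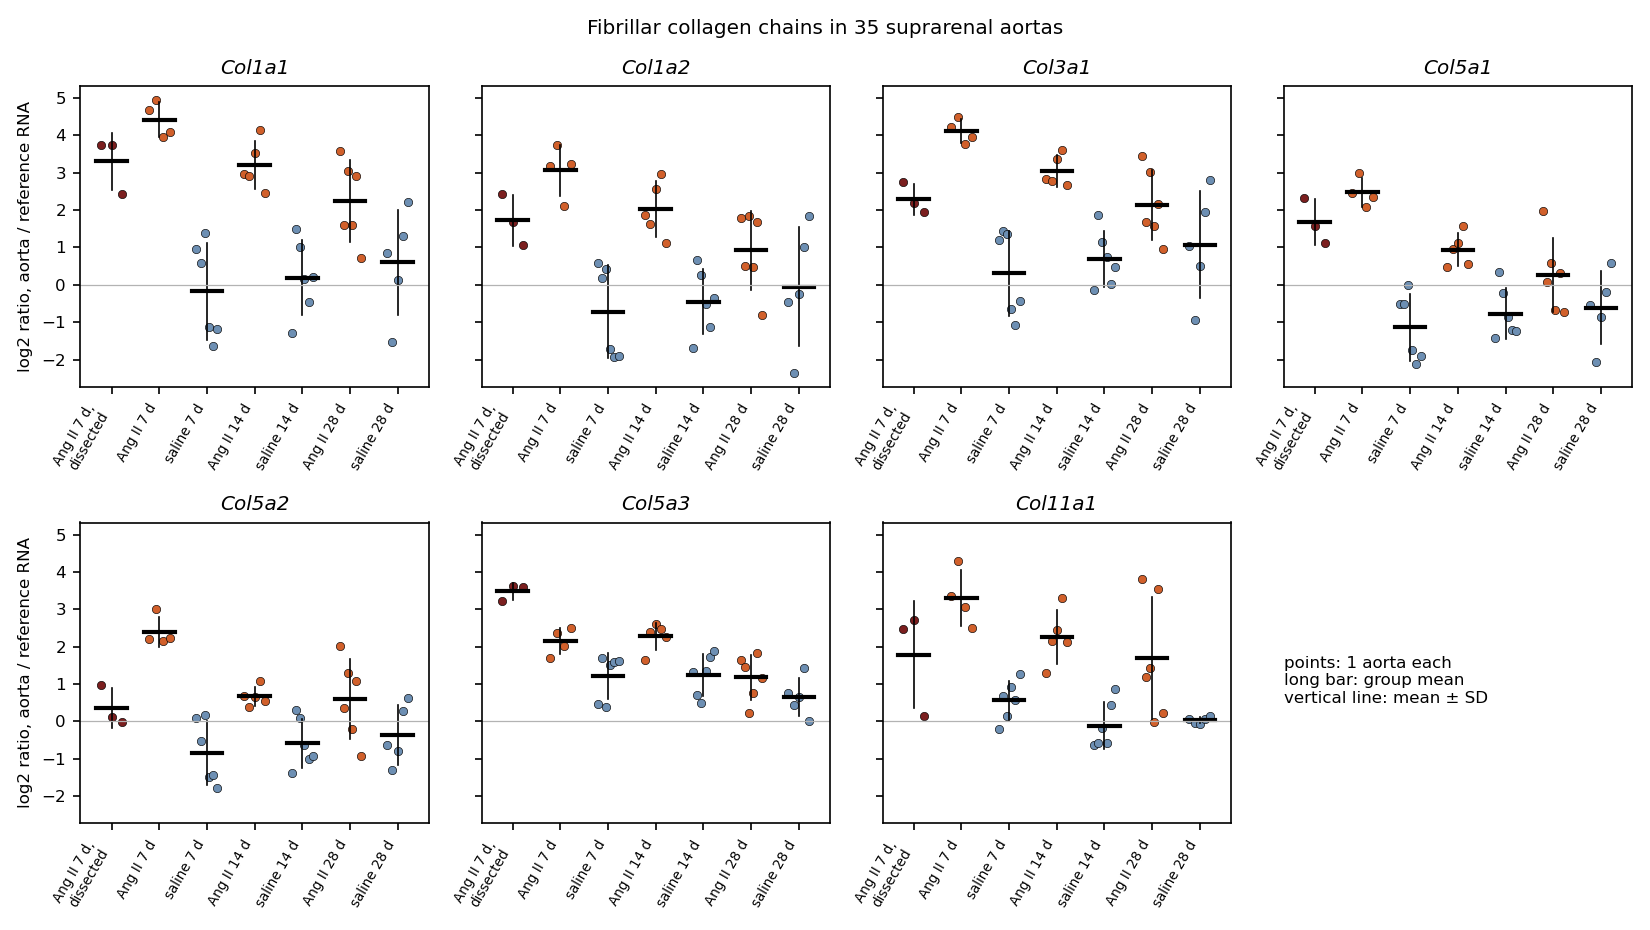
Log2 ratio of aorta to reference RNA for each of the 7 chains (vertical axis) in each of the 7 groups (horizontal axis), with 1 point per aorta, a bar at the group mean and a line for the SD. At 7 days no point of the non-dissected Ang II aortas lies below a saline point in any of the 7 panels, while dissected points of Col5a2 and Col11a1 do, the saline points of Col1a1 fall into a higher and a lower set, and Col5a3 alone has its highest points in the dissected aortas.

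The size of these changes, though not their direction, depended on how the ratios were made and differed between the scan days. From the aorta channel alone, quantile normalized, the change at 7 days was 2.91 for Col1a1, 3.02 for Col1a2, 2.68 for Col3a1, 3.60 for Col5a1 and 3.22 for Col5a2, so that Col1a1 no longer led. Within scan day 1 (3 Ang II and 3 saline aortas) Col1a1 changed by 3.60, and within scan day 2 (1 and 3 aortas) by 5.28. The saline aortas of 7 days differed between the days: Col1a1 averaged 0.97 on day 1 and -1.32 on day 2, with no overlap. Saline aortas of 14 days averaged 0.14 and 0.24, and those of 28 days went the other way, at -0.69 and 1.47. Whether the scan day or the spread among few aortas lay behind this was not tested.

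In dissected aortas 5 of the 7 chains were higher than in saline aortas of 7 days, where 18.9% of all genes were called higher. Col1a1 had ratios of 3.74, 3.75 and 2.43 in dissected aortas, all above the highest saline value of 1.39, and changed by 3.48 (SE 0.71, adjusted p = 0.000275), or 11.1-fold. Col1a2 had 2.43, 1.68 and 1.08, with a change of 2.46 (SE 0.72). Col3a1 had 2.75, 2.18 and 1.94, with a change of 1.98 (SE 0.62, adjusted p = 0.012). Col5a1 had 2.33, 1.56 and 1.11, with a change of 2.80 (SE 0.53). In these 4 chains the groups did not overlap, as in 17.2% of all genes in that direction. Without dissected replicate 1 the adjusted p of Col1a2 was 0.0615 and that of Col3a1 0.0705.

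Col5a3 had 3.22, 3.63 and 3.58 in dissected aortas, above each of the other 32 aortas, of which the highest stood at 2.60. Against saline the change was 2.27 (SE 0.35, adjusted p = 7.45e-06), or 4.81-fold, and against the 4 non-dissected Ang II aortas of 7 days it was 1.33 (SE 0.38, adjusted p = 0.0244).

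Col5a2 went the other way between the 2 kinds of Ang II aorta. It had 0.97, 0.11 and -0.01 in dissected aortas, against 2.19, 3.00, 2.16 and 2.23 in non-dissected aortas, with no overlap and a change of -2.04 (SE 0.54, adjusted p = 0.0177). Against saline, where the highest aorta stood at 0.16, its change was 1.20 (SE 0.50, adjusted p = 0.0619) and the groups overlapped. Without saline replicate 1 or 3 that change was called, at 1.38 (adjusted p = 0.0347) and 1.40 (adjusted p = 0.031). Col11a1 had 2.48, 2.72 and 0.15 in dissected aortas and its change against saline was 1.22 (SE 0.63, adjusted p = 0.134). Without dissected replicate 3, the low one, that change was 2.04 (adjusted p = 0.0229).

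These calls between dissected and non-dissected aortas concerned 2 of 7 chains, against 8.03% of all genes. Groups did not overlap in 11.8% of all genes with dissected aortas higher, as in Col5a3, and in 15.1% with them lower, as in Col5a2, Col1a1 and Col3a1. The other 5 chains had negative changes, from -0.80 for Col5a1 to -1.82 for Col3a1 (95% interval -3.19 to -0.46, adjusted p = 0.0886), and none passed. With scan day as a block the change of Col5a3 was 1.26 (adjusted p = 0.0684) and that of Col5a2 -1.80 (adjusted p = 0.0664), and no chain was called. Leaving out dissected replicate 2 or 3 also ended both calls. With median centring in place of loess Col5a3 was not called either, at 0.86. Without dissected replicate 2 Col5a3 stood at 1.26 and Col5a2 at -1.91. Without dissected replicate 3 they stood at 1.28 and -1.85. Without Ang II replicate 1 or 3 the call of Col5a3 was lost, at 1.19 and 1.29, and without Ang II replicate 2 that of Col5a2, at -1.84.

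Within scan day 2, which held all 3 dissected aortas and 3 of the saline aortas of 7 days, 6 chains were called against saline. Col1a1 changed by 4.63, Col1a2 by 3.58, Col3a1 by 3.01, Col5a1 by 3.60, Col5a2 by 1.94 and Col5a3 by 1.91, while Col11a1 stood at 0.86. These rises were measured among arrays of 1 scan day.

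**Figure D2:**
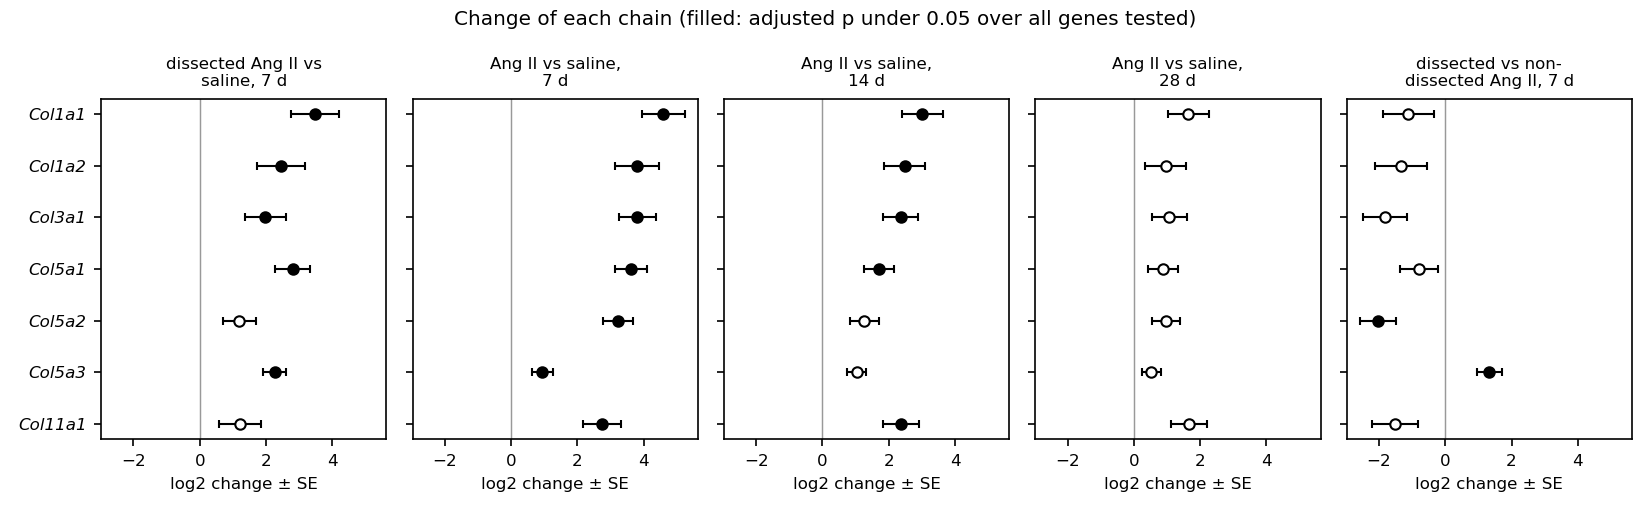
Log2 change with its standard error (horizontal axis) for each chain (rows) in 5 comparisons (panels), with filled points where the adjusted p over all genes tested was under 0.05. All 7 points are filled for Ang II against saline at 7 days, 5 for the dissected aortas and 5 at 14 days, none at 28 days, and only Col5a3 lies right of 0 in the last panel.

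At 14 days 5 of 7 chains were still higher with Ang II, against 1.12% of all genes called higher. Col1a1 had 2.97, 2.91, 3.52, 4.14 and 2.46 in Ang II aortas, against -1.29, 0.18 and 1.50 (lowest, median, highest) in saline aortas. Its change of 3.01 (SE 0.61, adjusted p = 0.00942) was 8.08-fold. Col1a2 changed by 2.48 (SE 0.62), from ratios of 1.86, 1.62, 2.57, 2.98 and 1.11 in Ang II aortas, against -1.70, -0.42 and 0.67 in saline aortas. Col3a1 had 2.82, 2.77, 3.38, 3.62 and 2.67 in Ang II aortas, against -0.14, 0.60 and 1.86, and changed by 2.37 (SE 0.53). These 3 chains did not overlap between groups, nor did Col5a1, Col5a2 and Col11a1 (1.46% of all genes in that direction).

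Col11a1 had 1.29, 2.14, 2.46, 3.29 and 2.12 in Ang II aortas of 14 days, against -0.65, -0.37 and 0.86 in saline aortas, a change of 2.37 (SE 0.54, adjusted p = 0.019). Of the type V chains, 1 was called. Col5a1 had 0.48, 0.96, 1.12, 1.57 and 0.55, against -1.42, -1.04 and 0.33 in saline aortas, a change of 1.71 (SE 0.45, adjusted p = 0.0394). Col5a2 had 0.68, 0.39, 0.66, 1.07 and 0.55, against -1.37, -0.78 and 0.30, which did not overlap, at a change of 1.26 (SE 0.43, adjusted p = 0.109). Col5a3 had 1.65, 2.39, 2.60, 2.46 and 2.26, against 0.48, 1.33 and 1.89, at a change of 1.03 (SE 0.30, adjusted p = 0.0562).

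The 14-day calls rested on few aortas. Without Ang II replicate 3, Ang II replicate 4 or saline replicate 1, only 1 chain, Col1a1, was called. Ang II replicate 4 was also the array with 84.8% of spots above background, and its Col1a1 ratio of 4.14 was the highest of its group. Col5a1 also lost its call without Ang II replicate 2 or saline replicate 4, 5 or 6, at 1.62 to 1.70, and Col5a3 gained one without Ang II replicate 1 or saline replicate 5 or 6, at 1.12 to 1.19. The changes themselves moved little: over the 11 fits that left out 1 array, that of Col1a1 ran from 2.72 to 3.28 and that of Col3a1 from 2.20 to 2.60. Within scan day 1 and scan day 2 Col1a1 changed by 3.08 and 2.96, with no chain called on either day.

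At 28 days no chain was called with limma, where 0.836% of all genes were called higher, and all 7 overlapped between groups, where 1.37% of all genes did not. At an unadjusted p under 0.05, 3 chains passed: Col1a1, Col5a2 and Col11a1, where 2825 of all 18671 genes did. Col1a1 ran from 0.72 over a median of 2.26 to 3.58 in the 6 Ang II aortas, and stood at 0.85, -1.52, 0.14, 1.32 and 2.23 in the saline aortas. Its change was 1.64 (95% interval 0.40 to 2.89, adjusted p = 0.19). Col1a2 changed by 0.97 (95% interval -0.30 to 2.23), Col3a1 by 1.07 (-0.01 to 2.15), Col5a1 by 0.88 (-0.05 to 1.80), Col5a2 by 0.97 (0.09 to 1.85) and Col5a3 by 0.53 (-0.08 to 1.14).

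Col11a1 varied widely among the Ang II aortas of 28 days. It stood at 3.81 and 3.55 in replicates 1 and 5, at 1.20 and 1.42 in replicates 2 and 3, and at -0.02 and 0.21 in replicates 4 and 6, while the 5 saline aortas lay between -0.07 and 0.13. The SD was 1.64 in the Ang II group and 0.08 in the saline group, at a change of 1.67 (SE 0.54, adjusted p = 0.132). The saline spots were dim, at aorta-channel intensities of 96.4 to 170, so that their small SD may be held down by the floor. Replicate 1 was also the highest of the 6 Ang II aortas for Col1a1, Col3a1, Col5a1 and Col5a2, whereas replicate 6 was the lowest for these 4 chains and for Col1a2.

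The 28-day comparison also differed between scan days. Within day 1 (3 Ang II and 2 saline aortas) Col1a1 changed by 3.44, Col3a1 by 2.94 and Col5a1 by 2.35. Within day 2 (3 and 3 aortas) Col1a1 stood at 0.28, and Col1a2, Col3a1, Col5a1 and Col5a2 were below 0, at -0.34, -0.37, -0.31 and -0.10. No chain was called on either day.

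The effect of Ang II was smaller at 28 than at 7 days in 3 of 7 chains, against 1.98% of all genes with a lower effect. The difference between the effects was -2.74 (SE 0.77, adjusted p = 0.0491) for Col3a1, -2.73 (SE 0.66, adjusted p = 0.023) for Col5a1 and -2.26 (SE 0.63, adjusted p = 0.0463) for Col5a2. For Col1a1 it was -2.95 (SE 0.89, adjusted p = 0.0652), for Col1a2 -2.83 (adjusted p = 0.0784), for Col11a1 -1.07 (95% interval -2.69 to 0.55) and for Col5a3 -0.40 (-1.29 to 0.48). All 3 calls lay close to the threshold, and the count ran from 0 to 5 when single arrays were left out. It was 0 without Ang II replicate 1 or 2 of 7 days, Ang II replicate 6 of 28 days or saline replicate 4 or 5 of 28 days, and 5 without saline replicate 2 of 28 days. It was 1 without Ang II replicate 4 of 7 days, Ang II replicate 2 or 4 of 28 days or saline replicate 4, 5 or 6 of 7 days. Between 14 and 7 days no chain had a called difference of effects (1.02% of all genes had one). At an unadjusted p under 0.05, 2 of 7 chains had one, as did 3801 of 18671 genes. The F test over all 3 times called 0 of 7 with limma (1.48% of all genes). At an unadjusted p under 0.05 it passed 5 chains. The count over all genes was not taken for this, so that nothing can be read from the 5.

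Among Ang II aortas alone, the 28-day group was lower than the 7-day group in Col5a1 by -2.21 (SE 0.48, adjusted p = 0.0074), in Col3a1 by -1.97 (SE 0.56, adjusted p = 0.0458) and in Col5a2 by -1.79 (SE 0.46, adjusted p = 0.0248), against 2.92% of all genes called lower. Only Col5a2 was called lower already at 14 days, by -1.73 (SE 0.48, adjusted p = 0.0276), where 3.53% of all genes were. Col5a3 stood at 0.13 (95% interval -0.55 to 0.80) in the same comparison. Mean ratios at 7, 14 and 28 days of Ang II were 2.40, 0.67 and 0.61 for Col5a2 and 2.14, 2.27 and 1.18 for Col5a3.

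Saline aortas gave the resting range of each chain. No chain differed among the 3 saline times by limma's F test, at 0 of 7 called and 0 with an unadjusted p under 0.05, where 0.503% of all genes were called. The spread within a saline group was wide for type I and III: the SD of Col1a1 was 1.29, 1.00 and 1.41 at 7, 14 and 28 days, and that of Col1a2 was 1.24, 0.87 and 1.60. Among the saline aortas of 28 days the highest values of Col1a1, Col1a2, Col3a1, Col5a1, Col5a2 and Col11a1, and the lowest of Col5a3, belonged to replicate 5, the array with the lowest share of spots above background. Without it and the array of highest share, the 28-day change of Col1a1 was 2.05 and that of Col3a1 was 1.50, and neither was called.

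Chains were then compared with each other inside each aorta, as a difference of log2 ratios, which shows unequal change of 2 probes and no level of one against the other. Of 24 exact two-sided permutation tests over aortas (6 pairs in 4 comparisons), 13 passed at an adjusted p under 0.05 over the 24. With the brightest probe of each gene, Col1a1 gained on Col1a2 in every comparison. The difference averaged 1.58 ± 0.43 in dissected aortas and 1.35 ± 0.42 in non-dissected Ang II aortas, against 0.55 ± 0.26 in saline aortas of 7 days (SD, n = 3, 4 and 6). It averaged 1.17 ± 0.16 with Ang II and 0.64 ± 0.15 with saline at 14 days, and 1.33 ± 0.27 with Ang II and 0.65 ± 0.43 with saline at 28 days. The adjusted exact permutation p was 0.026 in the first 3 of these comparisons and 0.0346 at 28 days. The gain was 0.68 at 28 days, a time at which neither chain was called by itself. A gain over Col1a2 was not seen at 7 and 14 days with the second Col1a1 probe, A_51_P377094. That probe changed by 3.72 and 2.38 there, against 3.80 and 2.48 for Col1a2. In dissected aortas it changed by 3.00, against 2.46, and at 28 days by 1.31, against 0.97. No permutation test was made with this probe.

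Col3a1 lost ground to Col1a1 in every comparison too, again with the brightest probes. Col3a1 minus Col1a1 averaged -1.02 ± 0.54 in dissected aortas and -0.31 ± 0.17 in non-dissected Ang II aortas, against 0.48 ± 0.32 in saline aortas of 7 days. At 14 days it was -0.15 ± 0.26 with Ang II and 0.50 ± 0.36 with saline, and at 28 days -0.11 ± 0.34 with Ang II and 0.47 ± 0.18 with saline. The adjusted exact permutation p was 0.026 in each of the 4 comparisons. The change was -1.50 in dissected aortas, against -0.79 without dissection. At 7 and 14 days Col3a1 changed by 3.81 and 2.37, close to the 3.72 and 2.38 of the second Col1a1 probe. In dissected aortas Col3a1 changed by 1.98 and that probe by 3.00, and at 28 days by 1.07 and 1.31.

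Among the type V chains, Col5a2 fell behind Col5a1 in dissected aortas, where the difference was -1.31 ± 0.17, against 0.30 ± 0.28 in saline aortas (change -1.61, adjusted exact permutation p = 0.026). It also did so at 14 days, by -0.45 (adjusted exact permutation p = 0.044). Col5a1 minus Col1a1 was -1.95 ± 0.20 in Ang II aortas of 7 days without dissection, against -0.96 ± 0.41 in saline aortas (change -0.99, adjusted exact permutation p = 0.026), and with the aorta channel alone this change was 0.70. At 14 days it was -2.26 ± 0.31 in Ang II aortas and -0.96 ± 0.47 in saline aortas (change -1.31, adjusted exact permutation p = 0.026). The change stood at -0.77 at 28 days and -0.68 in dissected aortas (adjusted exact permutation p = 0.0762 and 0.125). Col5a3 fell behind Col5a1 at 7 days of Ang II without dissection, by -2.67 (adjusted exact permutation p = 0.026), but stood at -0.54 in dissected aortas (adjusted exact permutation p = 0.636). Col11a1 minus Col5a1 passed in none of the 4 comparisons, with changes from -1.58 in dissected aortas to 0.79 at 28 days.

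**Figure D3:**
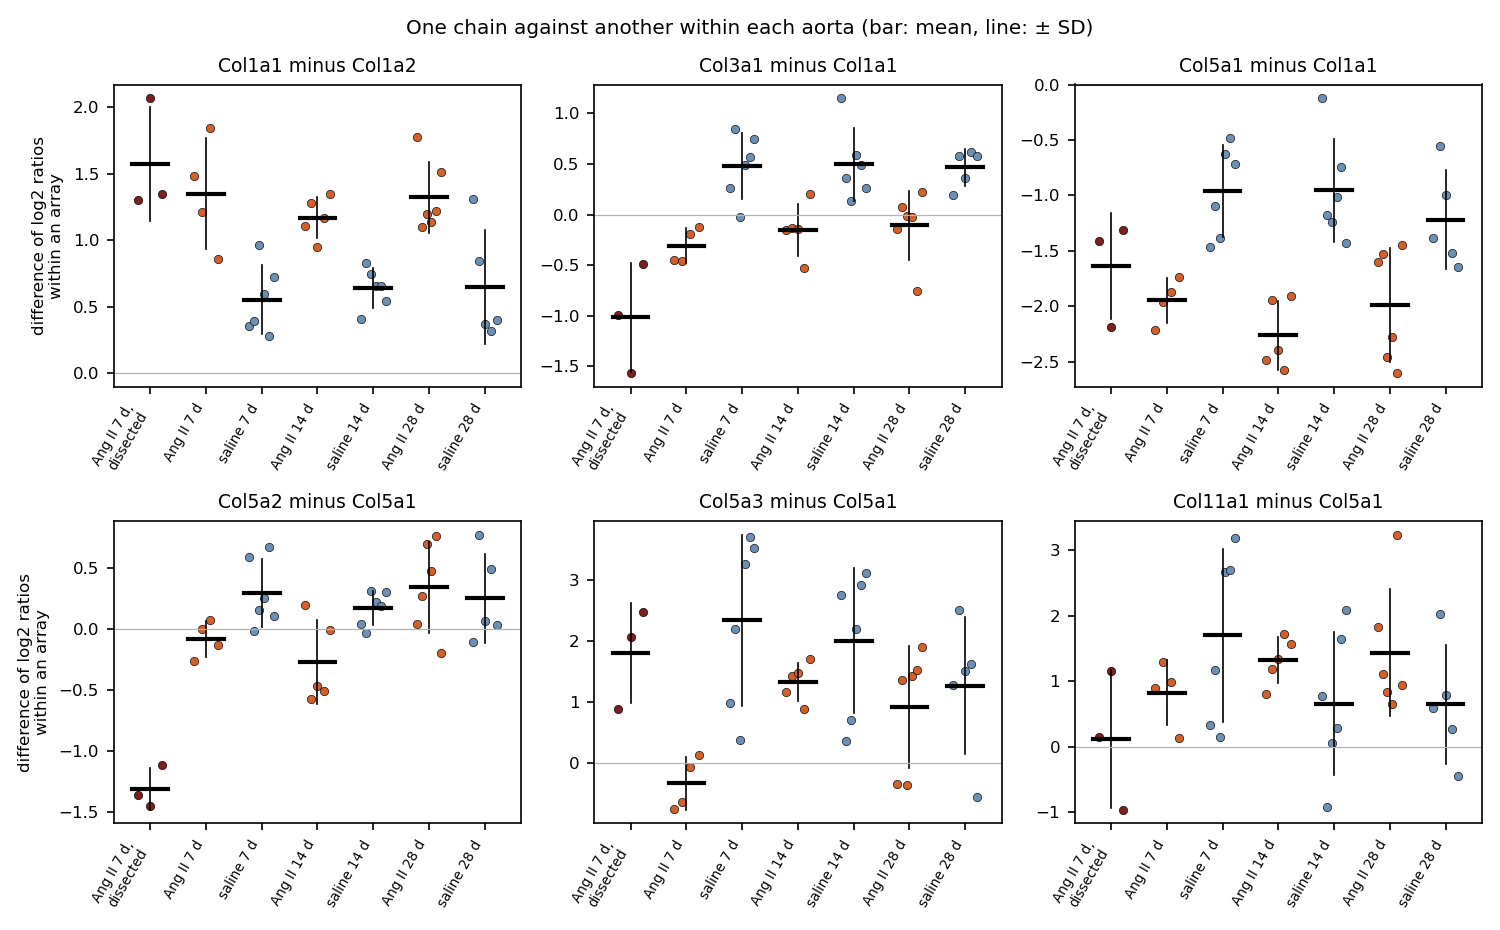
Difference between the log2 ratios of 2 chains within each aorta (vertical axis) for 6 pairs (panels) in the 7 groups (horizontal axis), with 1 point per aorta, the mean as a bar and the SD as a line. Col1a1 minus Col1a2 is higher in each Ang II group than in its saline group, and Col5a2 minus Col5a1 is lowest in the dissected aortas.

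These differences between chains depended on how the values were made. From the aorta channel alone, quantile normalized, 0 of the 24 passed, and Col1a1 minus Col1a2 at 7 days was -0.11 in place of 0.80. That setting both left out the reference and replaced loess, so that by itself it cannot tell which of these mattered. With all probes of a gene averaged in place of the brightest, Col5a1 minus Col1a1 in dissected aortas was 0.075 in place of -0.68. Col5a1 changed by 3.61 at 7 days and 1.71 at 14 days, where the second Col1a1 probe changed by 3.72 and 2.38.

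Probes of 1 chain were compared next. Col1a1 was read by 3 probes: A_52_P525107 (chr11:94767851-94767910, 10 spots, the brightest), A_51_P377094 and A_52_P658611. They changed by 4.59, 3.72 and 2.69 at 7 days of Ang II, by 3.48, 3.00 and 2.48 in dissected aortas, and by 3.01, 2.38 and 1.87 at 14 days, so that the order of the probes was the same each time and followed their brightness. The dimmest, A_52_P658611, gave 329 to 541 in Ang II aortas of 7 days and 90.7 to 129 in saline aortas, close to the local background. Col3a1 gave 3.81 with its bright probe A_51_P515605 (chr1:45293290-45293349) and 2.36 with the cysteine-rich probe A_52_P684242 at 7 days.

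The 2 probes of Col5a1 disagreed about dissection. The bright probe A_51_P414637 (chr2:27859381-27859440) averaged 1.67 ± 0.62 in dissected aortas and 2.47 ± 0.38 in non-dissected Ang II aortas, a change of -0.80 (SE 0.57). The probe in the helix repeat, A_52_P237371, averaged 3.50 ± 0.29 and 2.50 ± 0.29 in the same groups, a change of 1.01 (SE 0.31, adjusted p = 0.0421, limma over all probes). Its signal was low, 460 to 961 in dissected aortas and 440 to 687 in non-dissected aortas, yet well above background on all 35 arrays. The sign of Col5a1 between dissected and non-dissected aortas thus depended on the probe. Against saline both probes rose, by 2.80 and 3.32 in dissected aortas and by 3.61 and 2.32 in non-dissected aortas of 7 days.

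The second probe of Col1a2, A_52_P424253 (chr6:4463773-4463832), was dim, at intensities of 101 to 111 in dissected aortas and 159 to 200 in non-dissected Ang II aortas of 7 days, though well above background on all 7 of these arrays. It averaged 0.39 ± 0.27 in dissected aortas and 1.23 ± 0.18 in non-dissected aortas (SD, n = 3 and 4), a change of -0.84 (SE 0.15, adjusted p = 0.00133, limma over all probes). The bright probe of Col1a2 gave -1.34 in the same comparison and was not called.

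Other probes carried little signal. A_52_P503796, the Col5a3 probe in the helix repeat, was well above background in the aorta channel on 5 of 35 arrays, so that the rise of Col5a3 in dissected aortas rests on 1 probe, A_51_P241995 (chr9:20520550-20520609, minus strand). A_52_P507877 of Col11a1 was above background on 3 arrays, and A_52_P671029, named for a cDNA clone, on 1. Col5a2 was read by the single probe A_51_P247883 (chr1:45321322-45321381, minus strand). No spot of the 16 probes was saturated on any array.

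**Figure D4:**
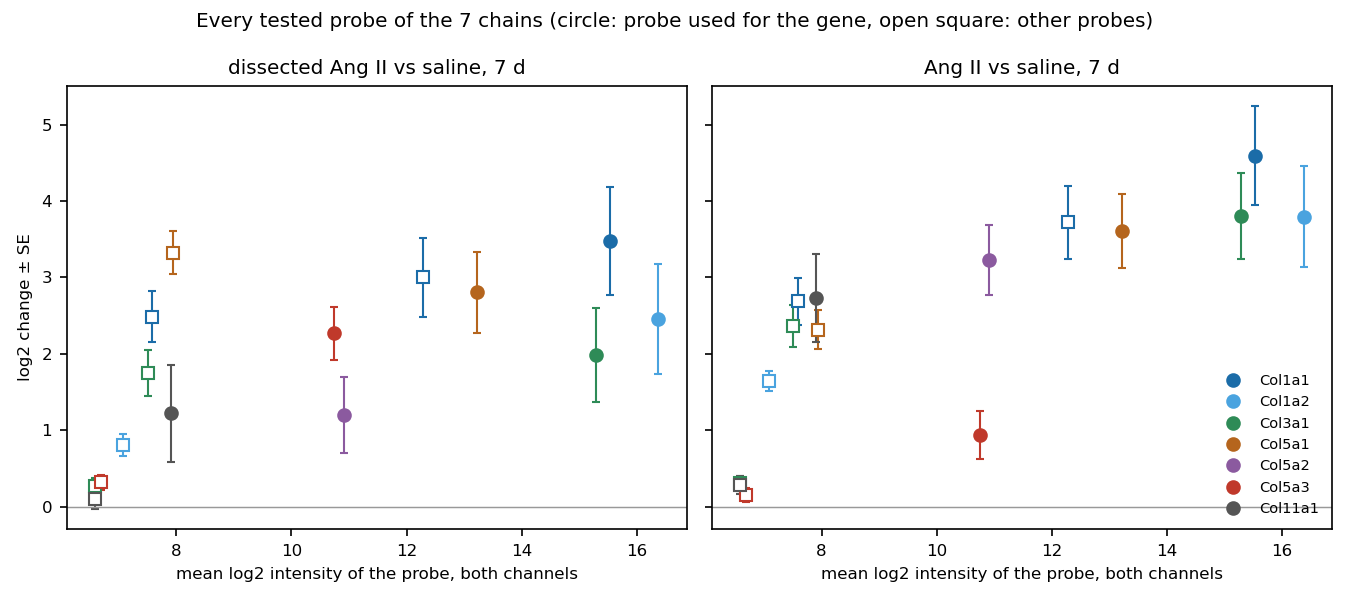
Log2 change with its standard error (vertical axis) against the probe's mean log2 intensity over both channels (horizontal axis) for every tested probe of the 7 chains, in dissected aortas against saline (left) and non-dissected Ang II aortas against saline at 7 days (right). Filled circles are the probes used for the genes. Dim probes near 6.59 show changes near 0, and the dim open square of Col5a1 at 7.94 is the highest point but 1 on the left.

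Across the 35 arrays Col1a1, Col1a2, Col3a1, Col5a1 and Col5a2 followed each other closely, with Pearson's r from 0.93 to 0.98 between any pair and from 0.89 to 0.96 between their deviations from the group means. Arrays share treatment, time, neighbouring tissue and depth, and these values are a description. Col11a1 correlated with these 5 chains at 0.71 to 0.76, and at 0.23 to 0.38 once group means were removed. Col5a3 correlated with them at 0.27 to 0.51, and its deviations from the group means ran against theirs, at -0.28 to -0.22, but with those of Col11a1, at 0.46. Saline aortas of 7 days show it in single values: Col5a3 averaged 0.85 on scan day 1 and 1.57 on scan day 2, where Col1a1 averaged 0.97 and -1.32.

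**Figure D5:**
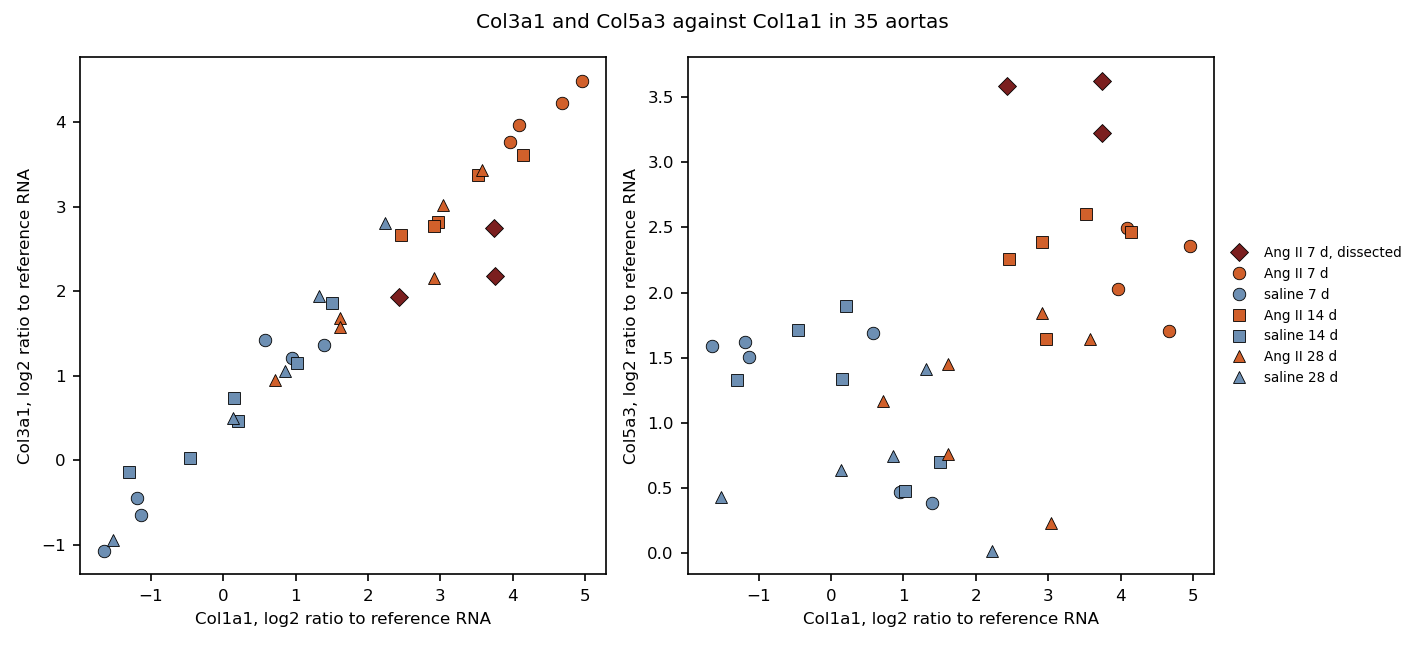
Log2 ratios of Col3a1 (left, vertical axis) and Col5a3 (right, vertical axis) against that of Col1a1 (horizontal axis), with 1 point per aorta and groups marked by colour and shape. Col3a1 lies along a line with the 3 dissected aortas and 1 Ang II aorta of 28 days below it, whereas Col5a3 has no common line and its 3 highest points, from 3.22 to 3.63, are the dissected aortas.

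The genes most like each chain over the 35 arrays were much the same for the 5 chains that moved together. Col2a1, the type II chain of cartilage, was the closest of all genes outside the 7 chains to Col1a1 (r 0.98), Col1a2 (0.97), Col3a1 (0.99) and Col5a1 (0.96), and ranked 3 for Col5a2 (0.95). Cd248, a receptor of perivascular and stromal cells, and Col16a1, a collagen that binds fibril surfaces, followed for Col1a1, both at 0.96. Bicc1 and Tmem119 followed for Col1a2 (0.96 and 0.94), Olfml3 and Tmem45a for Col3a1 (0.95 and 0.94), and Col16a1 and Fkbp10, a collagen chaperone, for Col5a1 (both 0.95). For Col5a2 Tmem45a came first (0.97) and Lox, the crosslinking oxidase, next (0.96). Col5a3 was closest to Ap2s1, a subunit of the clathrin adaptor (0.93), Rrp7a (0.91) and Mest (0.90). Col11a1 was closest to Col12a1, a fibril-associated collagen (0.86), Lgr5 (0.86) and an unnamed transcript of the array, NAP033385-1 (0.85).

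Some marker lists of the cells in the samples rose with the chains and others did not. At 7 days 6 of 10 fibroblast and adventitia markers rose and 1 fell (14.5% of all genes were higher and 12.6% lower). Their mean log2 ratio ran from 2.49 to 3.04 in non-dissected Ang II aortas and from 0.83 to 2.56 in saline aortas. In dissected aortas, where none of the 10 rose and 1 fell, it ran from 1.46 to 2.07. Of 6 activated fibroblast markers 5 rose at 7 days and 2 in dissected aortas, and their mean ran from 2.28 to 3.06 in dissected aortas and from 3.22 to 3.75 in non-dissected Ang II aortas, against 0.46 to 1.86 in saline aortas. All 8 macrophage markers rose in both. Contractile smooth muscle markers had 1 of 8 higher at 7 days and 0 of 8 in dissected aortas. Endothelial markers had 0 of 6 called at 7 days and 1 lower in dissected aortas, where 17.6% of all genes were lower. Brown adipocyte markers had 2 of 7 lower at 7 days and 0 called in dissected aortas. Hepatocyte markers had 0 of 6 called at 7 days and 2 lower in dissected aortas. Of 7 chromaffin markers, genes of the adrenal medulla and paraganglia, 5 fell at 7 days and none was called in dissected aortas. Their mean ran from 1.91 to 3.94 in dissected aortas and from -0.02 to 2.35 in non-dissected Ang II aortas, against 1.14 to 4.31 in saline aortas. No kidney tubule, adrenal cortex or skeletal muscle marker was called against saline at 7 days, with or without dissection. At 14 days 4 of 9 kidney tubule markers were lower, and 2 of 6 activated fibroblast and 1 of 6 chondrocyte markers higher. There 449 of 18671 genes were called in either direction. At 28 days 4 of 8 macrophage and 1 of 6 activated fibroblast markers were higher, against 0.836% of all genes. The part of these cells in the collagen changes was not tested. The fits below, with the fibroblast and adventitia mean as a covariate, cannot separate cell number from RNA per cell. Of the 10 genes in that mean 6 themselves rose at 7 days.

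Among the 17 saline aortas alone, the 5 chains tracked the fibroblast and adventitia mean at r of 0.84 to 0.93 and the contractile smooth muscle mean at 0.76 to 0.82, whereas Col5a3 stood at -0.43 and -0.57. Col11a1 and Col5a3 instead tracked the chromaffin mean, at 0.72 and 0.61. With the fibroblast and adventitia mean as a covariate all 7 chains were still called at 7 days, with smaller changes for 6 of them: 3.02 for Col1a1, 2.24 for Col1a2, 2.42 for Col3a1, 2.50 for Col5a1, 2.27 for Col5a2 and 2.44 for Col11a1, and 1.27 for Col5a3. In dissected aortas the covariate left Col1a1 at 3.43 and Col5a3 at 2.28, and between dissected and non-dissected aortas it moved Col5a2 to -1.10 and Col5a3 to 1.01, neither called. At 28 days it left Col1a1 at 1.23, which was then called.

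Col2a1 belongs to the chondrocyte marker list, of which 4 of 6 tested genes rose at 7 days. Col9a1, Matn1 and Hapln1 of the same list were measured but above background on fewer than 3 arrays. The mean of the list ran from 0.78 to 1.25 in dissected aortas and from 1.27 to 1.76 in non-dissected Ang II aortas, against -0.19 to 0.39 in saline aortas.

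The genes that fold, trim, crosslink and remove these chains were counted beside them. At 7 days of Ang II without dissection 18 of 20 genes of procollagen folding and hydroxylation rose, with a median change of 1.37. Of all genes 14.5% were called higher there. Serpinh1, the collagen-specific chaperone, changed by 2.94 (SE 0.49), Fkbp10 by 2.84, the telopeptide lysyl hydroxylase Plod2 by 2.69 and the prolyl hydroxylase subunit P4ha1 by 1.05. Of 8 genes of propeptide removal 4 rose, with the N-proteinase Adamts2 at 2.27, the enhancer Pcolce at 2.19 and the C-proteinase Bmp1 at 2.00. Of 5 crosslinking oxidases 4 rose, Lox by 3.56 and Loxl2 by 2.80. Fibril surface and assembly had 12 of 19 higher, led by Col12a1 at 3.32 and Col14a1 at 2.52, which both bind fibrils.

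The list of collagen breakdown also holds the metalloproteinase inhibitors Timp1, Timp2 and Timp3. At 7 days 6 of its 12 genes were higher. Among them were the inhibitor Timp1 at 4.86, the membrane collagenase Mmp14 at 3.19 and the collagen-cleaving cathepsin Ctsk at 1.96. Of 20 regulators of collagen transcription 10 were higher, with Ccn2, a matricellular factor, at 2.20, the tendon transcription factor Scx at 1.94 and the growth factor Tgfb1 at 0.85. Of the 4 other fibrillar chains Col2a1 alone was called, at 3.51.

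In dissected aortas 11 of 20 folding genes were higher and 1 was lower, where 18.9% of all genes were higher and 17.6% lower. Serpinh1 was at 3.23 and Fkbp10 at 2.97, Plod2 at 1.31 and P4ha1 at 0.67. Pcolce rose by 1.61 and Bmp1 by 2.15, while Adamts2 was at 0.97 (adjusted p = 0.254). Loxl2 rose by 2.81 and Loxl3 by 2.08, while Lox was at 0.94 (adjusted p = 0.123). Fibril surface and assembly had 3 higher, led by Comp at 2.90, and 3 lower, led by the proteoglycan Ogn at -2.47. For breakdown and its inhibitors 4 of 12 were higher and 1 lower, with the inhibitor Timp1 at 5.07, Mmp14 at 3.63 and Ctsk at 0.32 (adjusted p = 0.67). Regulators had 5 of 20 higher, with Tgfb1 at 1.56, the cartilage factor Sox9 at 1.46 and Ccn2 at -0.59 (adjusted p = 0.611). All 4 other fibrillar chains rose, Col2a1 by 1.96 and Col27a1 by 0.89.

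Directly between dissected and non-dissected Ang II aortas, where 4.98% of all genes were lower, Lox was lower by -2.62 (SE 0.51, adjusted p = 0.00202) and Plod2 by -1.38 (adjusted p = 0.0374), and 6 of 19 genes of fibril surface and assembly were lower, led by Aspn at -2.50 and Lum at -2.45, both small proteoglycans that bind collagen. Adamts3, a propeptidase, was lower by -0.67, the metalloproteinase inhibitor Timp3 by -2.95, Ccn2 by -2.79 (adjusted p = 0.0437) and the TGF-beta receptor Tgfbr2 by -0.76 (adjusted p = 0.0498). Higher were Tgfb1, by 0.72 (adjusted p = 0.00839), and the fibrillar chain Col24a1, by 1.36. Serpinh1 stood at 0.29, Bmp1 at 0.16, Mmp14 at 0.43, P4ha1 at -0.38, Adamts2 at -1.30, Ctsk at -1.64 and Col2a1 at -1.54, none of them called. Over the lists 14 of 88 genes were called, where 8.03% of all genes were called in either direction. With scan day as a block 6 of these 14 were called, and the share of all genes under that block is not given here. The 6 were Lox at -2.47 (adjusted p = 0.00892), Timp3 at -2.60, Col12a1 at -1.79, Prelp at -1.92, Tgfb1 at 0.76 and Col24a1 at 1.36. The other 8, Plod2, Aspn, Lum, Bgn, Itgb1, Adamts3, Ccn2 and Tgfbr2, were not called with that block, at adjusted p from 0.0522 for Adamts3 to 0.136 for Ccn2.

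At 14 days, when 5 chains were called, of the 20 folding genes 0 were called by limma, with Serpinh1 at 0.82 (adjusted p = 0.336), Plod2 at 1.04, and P4ha1 at -0.10. Bmp1 at 1.47 was the only propeptide gene called, beside Adamts2 at 1.38 (adjusted p = 0.171), and Loxl2 at 1.31 the only crosslinking gene, beside Lox at 0.99 (adjusted p = 0.184). Comp at 1.77 and Col12a1 at 1.58 rose among fibril surface genes. For breakdown and its inhibitors 5 of 12 were higher, with the inhibitor Timp1 at 2.47 and Mmp14 at 1.70, while Ctsk was at 1.40 (adjusted p = 0.0777). Of the regulators 0 of 20 were called, with Ccn2 at 0.17 and Tgfb1 at 0.33. Col2a1 rose by 2.19.

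At 28 days, when no fibrillar chain was called, 1 gene of these lists was, the metalloproteinase inhibitor Timp1 at 2.36 (SE 0.48, adjusted p = 0.0104). Mmp14 stood at 1.23 (adjusted p = 0.0613), Bmp1 at 1.18 (adjusted p = 0.0602), Ctsk at 1.40, Col2a1 at 1.07, Lox at 0.93, Serpinh1 at 0.68, Plod2 at 0.54, Ccn2 at 0.48, Adamts2 at 0.43, Tgfb1 at 0.42 and P4ha1 at 0.30, none of them called.

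Promoter sequence was at hand in RefSeq (build GRCm38.p6) for 5 of the 7 chains, and is shown for 3 that moved together and for Col5a3, which did not. Each window runs from 150 bases before to 20 after the annotated start, in the gene's own direction, at chr6:4505468-4505637 (plus strand) for Col1a2, chr1:45311388-45311557 (plus strand) for Col3a1, chr2:27886275-27886444 (plus strand) for Col5a1 and chr9:20815048-20815217 (minus strand) for Col5a3. Capitals mark matches, on either strand, to the CCAAT box (CCAAT, in 26.3% of 32851 promoter windows), the TATA box (TATAAA, 8.1%), the GC box (GGGCGG, 30.3%) and the AP-1 site (TGANTCA, 4.74%).
Col1a2: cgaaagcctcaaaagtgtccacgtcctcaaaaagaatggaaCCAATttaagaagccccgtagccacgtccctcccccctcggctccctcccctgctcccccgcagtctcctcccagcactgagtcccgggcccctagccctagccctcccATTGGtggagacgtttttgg
Col3a1: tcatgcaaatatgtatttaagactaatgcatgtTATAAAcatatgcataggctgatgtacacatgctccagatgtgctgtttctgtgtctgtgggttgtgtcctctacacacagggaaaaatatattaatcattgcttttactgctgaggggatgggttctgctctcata
Col5a1: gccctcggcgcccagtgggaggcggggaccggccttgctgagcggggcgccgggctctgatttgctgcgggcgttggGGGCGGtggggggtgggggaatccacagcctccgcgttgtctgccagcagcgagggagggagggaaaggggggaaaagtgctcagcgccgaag
Col5a3: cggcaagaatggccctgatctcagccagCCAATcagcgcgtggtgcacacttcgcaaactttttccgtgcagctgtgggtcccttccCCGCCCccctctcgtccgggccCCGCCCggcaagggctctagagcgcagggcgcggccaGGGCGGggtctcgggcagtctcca

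The 3 windows of the chains that moved together held no motif in common: Col1a2 had 2 CCAAT matches, Col3a1 had 1 TATA match and Col5a1 had 1 GC match. Col5a3 had 1 CCAAT match and 3 GC matches, and Col11a1, not printed, had 1 and 2 of the same. No AP-1 match lay in any of the 5 windows. A match describes letters and not a site.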

How the data were processed

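Aorta RNA was labelled with Cy5 and the universal mouse reference with Cy3 on 2-colour Agilent arrays, with no dye swap. Per the file headers, the deposited scanner files hold an intensity per spot and channel and a log10 ratio of red over green, and the submitters' processing notes name Feature Extraction 9.5.3.1. The deposited series table holds log2 ratios: its slope on the scanner's log10 ratio was 3.32 to 3.34, its array medians ran from -0.0675 to 0.109, and it served as an alternative.

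Mean and background intensities of 45018 spots were corrected with normexp (offset 50) and normalized by loess within arrays in limma 3.58.1 (R 4.3.3), with 1639 control spots at weight 0. Spots of a probe were averaged. Of 41174 probes, 27825 were well above background in the aorta channel on at least 3 arrays, and the brightest of these stood for each of 18671 genes. Names came from accessions for 24375 probes, current symbols for 6301 and older symbols for 2426, while 8072 probes stayed under their own label. A model of 7 group means over 35 arrays (28 residual degrees of freedom) gave changes, and p-values were adjusted by Benjamini-Hochberg over all genes, with a threshold of 0.05. The number of arrays limits the precision.

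Chains were compared within arrays by exact two-sided permutation tests. The scripts were tested on simulated data. The chains and gene lists were chosen with earlier results of these data known. All 7 chains were named, with the 2 called genes of largest change per list, 11 pathway genes fixed by name and the 3 genes of highest r with each chain; the remaining genes named are examples chosen after their values were seen. Alternatives covered background, normalization, filter, probe choice, scan day, slide, replicate number, tissue scores and each array left out.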

Additional observations from a re-analysis of the deposited data

Results flagged for a closer look

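Col5a2 had 1 lone value among the non-dissected Ang II aortas of 7 days: replicate 2 stood at 3.00 and the next at 2.23, a gap of 0.9132 of the group's whole range. Of 42 sets of values tested in this way 1 stood apart, where chance gives about 1 in 20. Without it the change of Col5a2 between dissected and non-dissected aortas was -1.84 (adjusted p = 0.0656, limma), and the call also ended without dissected replicate 2 (-1.91) or 3 (-1.85).

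The effect of Ang II differed between 28 and 7 days for 3 chains by limma's test of the difference. It was -2.738 for Col3a1 (SE 0.7729, adjusted p = 0.04915), -2.7305 for Col5a1 (SE 0.6634, adjusted p = 0.02295) and -2.2639 for Col5a2 (SE 0.6297, adjusted p = 0.04626).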

How the results depend on the processing

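Scale normalization between arrays widened 3 arrays by over 2 times, saline replicate 5 of 7 days and saline replicates 2 and 4 of 28 days, and left 2 chains called at 7 days, 0 at 14 days, 1 at 28 days, 0 in dissected aortas and 0 between dissected and non-dissected aortas, 3 member calls against 19 and 60 list calls against 117, and put Col5a3 at -1.10 at 28 days. At 7 days 4 chains were called within scan day 2, which held 1 non-dissected Ang II aorta, assumed to vary like the other groups. At 14 days 3 were called with median centring and with slide as a block, 0 on scan day 1 alone and 0 on day 2 alone, and 1 without the arrays of highest and lowest share above background. At 28 days 1 was called with the fibroblast score. In dissected aortas 3 were called with slide as a block. Between dissected and non-dissected aortas 4 were called with array weights, and 0 with slide as a block, with that for scan day, among scan day 2 arrays (again with that single aorta), with neighbouring tissue scores and with the fibroblast score. There Col5a1 was at 0.10 with all probes averaged, 0.033 with tissue scores, 0.27 with the fibroblast score and 1.01 with its second probe, and the fibroblast score put Col1a1 at 0.41 and Col1a2 at 0.16. Within scan day 2 at 28 days Col1a2 was at -0.34, Col3a1 at -0.37, Col5a1 at -0.31 and Col5a2 at -0.10.

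The count of 3 chains with a smaller effect at 28 than at 7 days was 5 with all probes averaged or array weights; 1 without background subtraction, with the scanner's ratio, the aorta channel alone, the series table, no filter or scan day as a block; and 0 with median centring, scale normalization, only the groups compared, slide as a block, on scan day 1 alone, with tissue scores, with the replicate block and without the arrays of highest and lowest share. The F test over times called 1 chain with the scanner's ratio, the aorta channel, the series table, within scan day 2 and with the second probe, 3 with all probes averaged and with the fibroblast score, and 5 with array weights. Calls among all genes varied widely over the settings too. They numbered 494 for 28 against 7 days (4 to 1934 over settings) and 277 for the F test (2 to 2460). With the aorta channel alone 0 of 24 chain differences passed, Col1a1 minus Col1a2 at 7 days was -0.11, and Col5a1 minus Col1a1 was 0.70 at 7 days and 0.11 in dissected aortas. With all probes averaged, Col5a1 minus Col1a1 was 0.075 in dissected aortas, Col5a2 minus Col5a1 0.27 at 7 days and Col11a1 minus Col5a1 -0.16 at 14 days. The cause was not tested.

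Leaving out single arrays gave 6 to 7 chains at 7 days, 1 to 6 at 14 days, 0 to 0 at 28 days, 3 to 6 in dissected aortas, 0 to 2 between dissected and non-dissected aortas, 0 to 5 for 28 against 7 days, 0 to 2 for the F test, 0 to 0 among saline times, 15 to 20 member calls, 101 to 130 list calls and 9 to 14 chain differences. Same-numbered replicates shared only a number: over 14 pairs r ran from -0.40 to 0.60, 6 were over 0.1 and 5 were closest to their own number. The replicate block gave 7, 4 and 0 chains at 7, 14 and 28 days, 5 in dissected aortas and 2 between dissected and non-dissected aortas. Of all genes tested, 5070 were called at 7 days (199 to 7906 over these settings), 449 at 14 days (1 to 1411), 168 at 28 days (0 to 4082), 6819 in dissected aortas (2081 to 10200) and 1500 between dissected and non-dissected aortas (8 to 5231). Settings with the fibroblast score, the second probe and without 2 arrays were chosen after seeing the data. Dim probes, such as that of Col11a1 in saline aortas, limit the smallest change that could be measured.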
